A study of Mus musculus with 12 samples.

Results

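Gene expression in AML1-ETO myeloid cells without Tet2 was compared with that in floxed control cells at passage 10, the later of the study's time points. The comparison rests on 6 of the study's 12 arrays, 3 labelled Tet2-/-_AML1_ETO_p10 and 3 labelled Tet2fl/fl_AML1_ETO_p10, and arrays with the same replicate number were taken as pairs. All rows of the value table with 1 gene symbol entered, 23521 of 41345, and 16860 genes were tested after a filter on low values.

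All cells came from Tet2fl/fl;CreER mice, in which Cre recombinase removes the floxed part of Tet2 after exposure to 4-hydroxytamoxifen (4-OHT). Their Kit-enriched bone marrow had been transduced with AML1-ETO, a leukaemia fusion protein, on a retrovirus that also encodes GFP, and grew with SCF, IL-3 and IL-6 after 3 rounds of replating. The Tet2-/- cells had received 200 nM 4-OHT for 4 days and the Tet2fl/fl cells ethanol, so effects of 4-OHT or of active Cre cannot be told apart from those of Tet2 loss. Both groups express AML1-ETO, and no cells without the fusion were used here. GFP+ CD11b- Gr1- CD16/32+ cells were sorted, and 100 ng of total RNA was hybridised per array. Passage 2 arrays of the same design, 3 per genotype, entered the fit and are given beside the passage 10 values.

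TET2 oxidises 5-methylcytosine to 5-hydroxymethylcytosine, a step toward removal of methyl groups from CpG sites, and its loss is frequent in myeloid leukaemia. AML1-ETO joins the DNA-binding domain of RUNX1 to the corepressor ETO and blocks myeloid differentiation. In culture with SCF and IL-3, bone marrow progenitors can also take on features of mast cells and basophils, which store proteases and amines in granules and carry the IgE receptor.

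Values are log2 array signals, differences are Tet2-/- minus Tet2fl/fl on the log2 scale, and values after ± are standard errors from limma's fit with the replicate number as a block. P-values were adjusted by Benjamini and Hochberg over all genes tested, with n = 3 arrays per group, and "passed" means an adjusted p under 0.05. The array medians lay between 5.57 and 5.67 at passage 10. Tet2 read 9.91, 9.80 and 9.93 in Tet2fl/fl replicates 1 to 3 and 9.92, 9.64 and 9.93 in Tet2-/- replicates 1 to 3, and the groups overlapped (-0.05 ± 0.07, adjusted p = 0.848). A single signal summarises the whole gene here and does not check the deletion. Of 9 sort-related surface genes, Kit alone passed. Ptprc (CD45), Fcgr3 (CD16) and Itgam (CD11b) differed by 0.20, 0.18 and 0.20 without passing, and Ly6g, part of the Gr1 antigen that the sort excluded, by 1.32 ± 0.33 (adjusted p = 0.0887).

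At passage 10, 221 genes passed, 1.31% of the 16860 tested. In Tet2-/- cells 103 were higher (0.611%) and 118 lower (0.7%). The differences were over 1.5-fold in 151 of the called genes and over 2-fold in 54. The 3 arrays of each group did not overlap in 190 of the 221, against 16.3% of all genes tested, and all 3 pairs ran in 1 direction in 221 of 221, against 37.5%. The genes were called from these same arrays, so both shares are in large part given by the choice. Without the block 38 genes passed (0.225%; 21 higher, 17 lower), and all 38 were among the 221. After equalising the array medians 34.3% of the calls were higher (82 higher, 157 lower), against 46.6% in the deposited scaling.

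The count of calls rested on single arrays. Without Tet2-/- replicate 2 or 3 it was 31 or 36, and without Tet2fl/fl replicate 2 or 3 it was 51 or 97. Without replicate 1 it was 253 (Tet2fl/fl) or 242 (Tet2-/-). The count was also lower without any 1 passage 2 array, which enter through the shared spread and the block. It was 180, 127 and 146 without Tet2fl/fl passage 2 replicate 1, 2 or 3. Without Tet2-/- passage 2 replicate 1, 2 or 3 it was 120, 177 and 123. A fit to the 6 passage 10 arrays alone called 15. For 23 of the called genes the call held without any 1 of the 12 arrays, and 16 of those also passed without the block. The latter include Slc6a4, Mtss1, Got1 and Ifitm3 among the lower genes and Notch3, Sorl1, Tfr2 and Rnd3 among the higher. Of these, Notch3, Tfr2 and Rnd3 missed the threshold in the fit to the passage 10 arrays alone, which kept 6 of 70 named calls. They also missed it without replicate 3 in all groups. Without replicate 2 in all groups, all of these genes but Ifitm3 missed it.

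Genes that fell in both fits included transporters, surface receptors and metabolic enzymes. Slc6a4, the serotonin transporter, fell 7.91-fold. It read 10.24, 10.04 and 11.00 in Tet2fl/fl cells and 7.34, 6.79 and 8.20 in Tet2-/- cells (-2.98 ± 0.25, adjusted p = 0.00138). Every Tet2-/- array lay below every Tet2fl/fl array. Its difference was the largest among the called genes that were lower, and without any 1 array its adjusted p stayed at or below 0.0128. Itga2, the integrin subunit of a collagen receptor, read 9.04, 8.48 and 10.01 against 7.37, 6.19 and 6.54 (-2.47 ± 0.33, adjusted p = 0.0133). Its groups were apart, with the smallest gap within pair 1. Mtss1, a regulator of membrane curvature and the actin cytoskeleton, read 8.99, 9.07 and 8.90 against 7.86, 7.72 and 7.80, with a narrow spread in both groups (-1.19 ± 0.12, adjusted p = 0.00305). Got1, the cytosolic aspartate aminotransferase, read 8.97, 9.22 and 9.11 against 8.0, 8.29 and 8.19, again without overlap (-0.94 ± 0.09, adjusted p = 0.00311).

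The remaining members of this group fell by less than Itga2 and also had no overlap between the arrays. Among membrane proteins, Lhfp (-1.94 ± 0.25), the potassium channel subunit Kcne3 (-1.42 ± 0.18), Tpbgl (-1.49 ± 0.12) and the adhesion receptor Adgrg6 (-0.98 ± 0.10) passed with adjusted p between 0.00138 and 0.0104. Tgfa, a ligand of the EGF receptor, fell by 1.22 on the log2 scale. Smaller differences were those of the lysine methyltransferase Eef1akmt1 (-0.82), Pitpnm2 (-0.71), the sorting nexin Snx8 (-0.67), the glucosyltransferase Poglut3 (-0.66) and the lipid phosphatase Plpp5 (-0.57). Without Tet2-/- replicate 2, and likewise without replicate 3, 7 of the 15 lower genes in this group missed the threshold (Eef1akmt1, Itga2, Pitpnm2, Plpp5, Poglut3, Snx8, Tgfa), with adjusted p up to 0.135. Without Tet2fl/fl replicate 2 or 3, 5 and 3 of them missed it, Itga2 and Pitpnm2 not among them.

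Genes that rose in both fits included secreted proteins, transporters and surface receptors. Nepn, which encodes the small leucine-rich proteoglycan nephrocan, rose 5.96-fold. It read 5.6, 6.31 and 7.39 in Tet2fl/fl cells and 8.66, 9.47 and 8.89 in Tet2-/- cells (2.57 ± 0.35, adjusted p = 0.0133). The groups were apart, but Nepn missed the threshold without Tet2fl/fl replicate 2 or Tet2-/- replicate 2 (adjusted p up to 0.0645). Notch3, a Notch receptor, read 7.72, 7.66 and 7.61 against 8.39, 8.48 and 8.50, with the groups separated by more than their own ranges (0.80 ± 0.07, adjusted p = 0.00241). Tfr2, a transferrin receptor that senses iron, read 7.23, 7.02 and 7.23 against 7.96, 8.16 and 7.85, also apart (0.83 ± 0.10, adjusted p = 0.00822). Rnd3 read 5.07, 5.90 and 5.84 against 6.77, 6.91 and 7.20, with every Tet2-/- array above every Tet2fl/fl array (1.36 ± 0.17, adjusted p = 0.00929).

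Sorl1, a sorting receptor of the endosome, rose by 1.05 ± 0.08 (adjusted p = 0.001), and Zbtb16, the transcription factor PLZF, by 0.82 ± 0.11 (adjusted p = 0.012). The matrix metalloproteinase Mmp27 (1.24), the anion transporter Slc26a9 (1.27), the cytochrome Cyp2s1 (1.02) and the peptidoglycan amidase Pglyrp2 (0.74) were higher too. The cathepsin Ctse (0.64), the ubiquitin ligase Rnf144a (0.72), Prickle3 of the planar polarity family (0.72) and the receptor Treml2 (0.51) complete the 14 named genes of this kind. Without Tet2-/- replicate 2, 9 of the 14 missed the threshold, and without replicate 3, 7. Without Tet2fl/fl replicate 2, 3 or 1, 8, 3 and 1 missed it, and the highest adjusted p over these arrays was 0.104. Mmp27, Notch3, Rnd3, Sorl1 and Tfr2 passed without any 1 array. Of these, only Sorl1 passed in the fit to the passage 10 arrays alone.

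**Figure D1:**
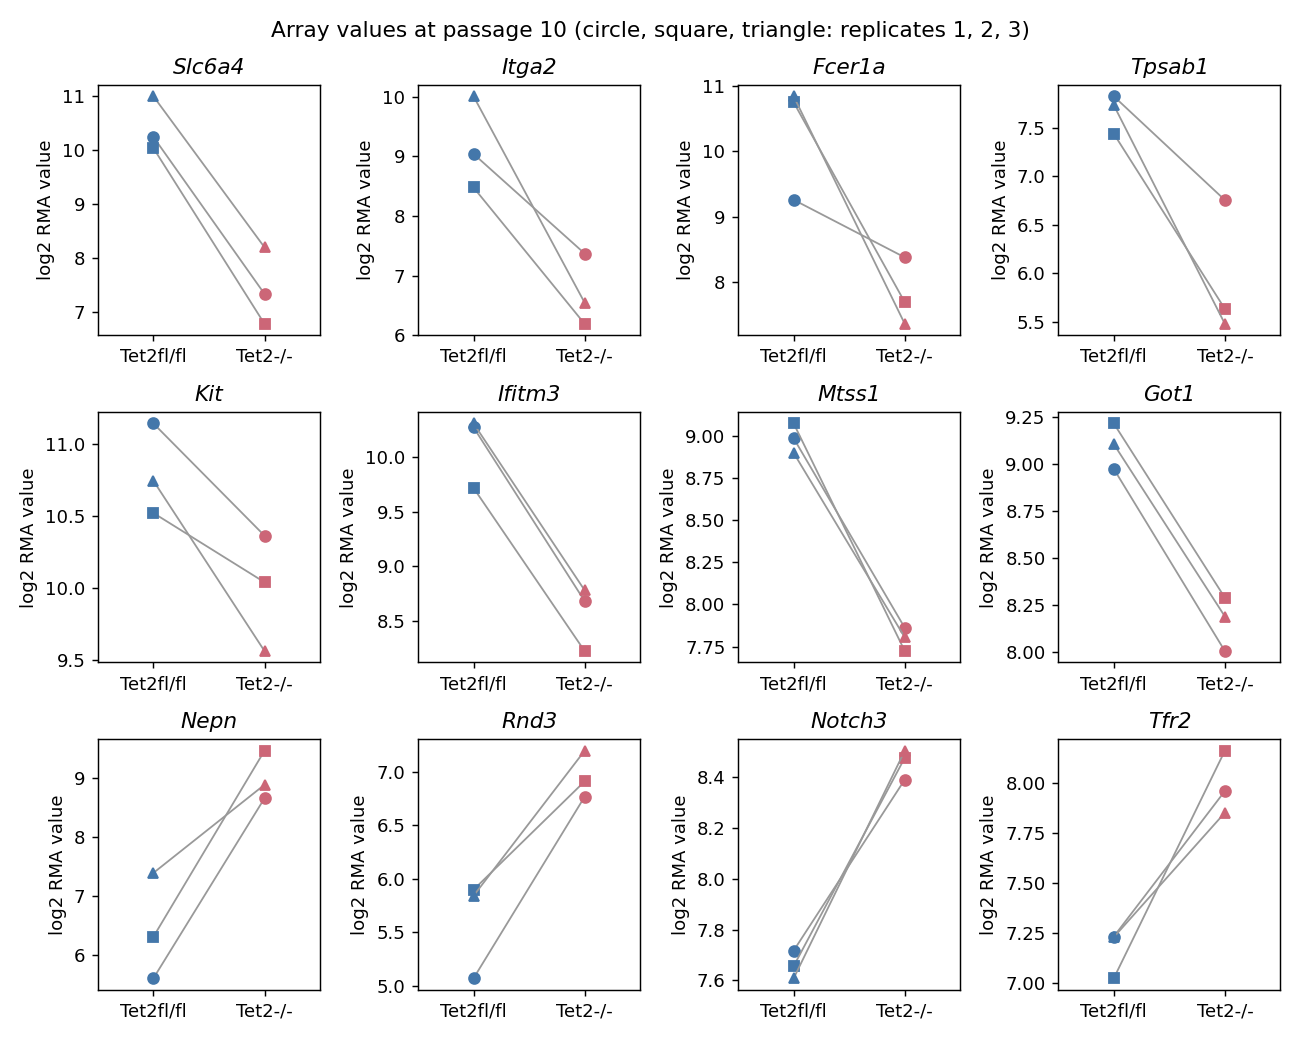
Log2 array values (vertical axes, a scale of its own per gene) of 12 genes in the 3 Tet2fl/fl and 3 Tet2-/- arrays at passage 10. Lines join arrays with the same replicate number (circle 1, square 2, triangle 3), and every line falls for the 8 genes from Slc6a4 to Got1 and rises for the 4 from Nepn to Tfr2.

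Promoter windows were set beside these calls because TET2 acts on methylated CpG sites. The 4 windows below come from lower and higher genes and span few to many CG pairs. Each holds 300 bases, from 250 before to 50 after the gene's start in RefSeq (GRCm38.p6), printed 5' to 3' on the gene's strand with each CG pair in capitals. Slc6a4 (chr11:76998347-76998646, plus strand) and Notch3 (chr17:32166841-32167140, minus strand) hold 28 and 25 CG pairs. Fcer1a (chr1:173227180-173227479, minus strand), a lower gene described with the mast cell genes, holds 1, and Nepn (chr10:52391358-52391657, plus strand) holds 3.
Slc6a4: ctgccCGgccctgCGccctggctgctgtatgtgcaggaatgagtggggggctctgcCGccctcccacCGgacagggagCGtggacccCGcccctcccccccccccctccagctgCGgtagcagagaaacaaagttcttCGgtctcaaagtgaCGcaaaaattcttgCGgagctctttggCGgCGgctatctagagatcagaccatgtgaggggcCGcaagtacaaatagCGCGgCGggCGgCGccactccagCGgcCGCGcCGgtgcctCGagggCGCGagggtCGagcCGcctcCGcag
Fcer1a: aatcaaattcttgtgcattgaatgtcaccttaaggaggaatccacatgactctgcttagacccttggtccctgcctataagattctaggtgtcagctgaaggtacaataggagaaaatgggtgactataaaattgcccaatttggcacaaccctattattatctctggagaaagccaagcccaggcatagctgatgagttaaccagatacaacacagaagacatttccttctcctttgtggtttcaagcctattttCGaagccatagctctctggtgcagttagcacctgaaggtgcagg
Notch3: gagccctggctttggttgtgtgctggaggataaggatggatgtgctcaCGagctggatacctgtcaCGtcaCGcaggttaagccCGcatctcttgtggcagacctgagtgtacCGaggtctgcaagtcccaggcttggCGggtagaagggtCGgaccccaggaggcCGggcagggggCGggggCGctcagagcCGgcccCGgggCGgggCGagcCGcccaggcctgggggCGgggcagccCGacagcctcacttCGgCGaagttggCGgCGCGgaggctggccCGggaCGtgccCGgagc
Nepn: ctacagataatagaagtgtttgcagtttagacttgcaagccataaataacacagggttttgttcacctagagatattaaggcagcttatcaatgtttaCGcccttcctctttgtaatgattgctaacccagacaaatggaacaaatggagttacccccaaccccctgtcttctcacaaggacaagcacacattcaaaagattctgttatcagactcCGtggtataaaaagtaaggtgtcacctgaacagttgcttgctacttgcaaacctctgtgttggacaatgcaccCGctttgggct

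A window was found for 77 of the 103 higher and 100 of the 118 lower genes. The median number of CG pairs was 9 for the higher genes, 20 for the lower genes and 18 for the 13038 tested genes with a window. Fewer than 10 CG pairs were present in 51.9% of the higher windows, 23.0% of the lower windows and 29.9% of all. Among genes with a difference over 2-fold it was 66.7% of 18 higher and 42.1% of 19 lower windows, with medians of 6 and 13. The large falls were thus also poorer in CG pairs than all windows. These shares describe the windows and carry no test, and DNA methylation was not measured on these arrays. The letters AGATAA, bound by GATA factors, were present on either strand in 13% of the higher, 6.0% of the lower and 7.76% of all windows. The RUNX letters TGTGGT were present in 19.5%, 13% and 13.6%, and the ETS letters GAGGAAGT in 9.09%, 6.0% and 3.05%. Over 2-fold, the shares of higher and lower windows were 27.8% and 15.8% for AGATAA, 27.8% and 10.5% for TGTGGT, and 5.56% and 5.26% for GAGGAAGT. Matches of the 3 motifs were counted separately, whether or not they overlapped. The Fcer1a window holds 1 match each to AGATAA and TGTGGT, and the Nepn window 1 to AGATAA.

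**Figure D2:**
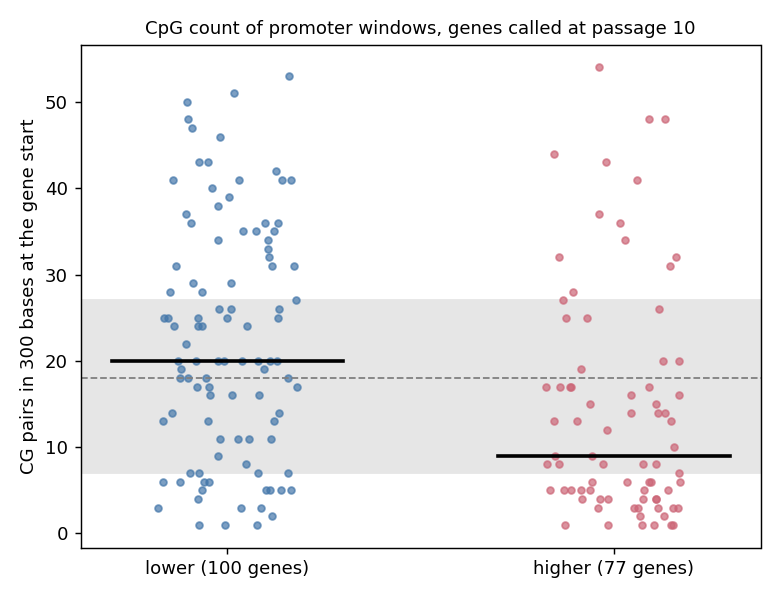
Number of CG pairs in the 300-base promoter window (vertical axis) of each called gene with a window, lower and higher in Tet2-/- cells at passage 10. Black bars mark the medians (20 and 9), and the dashed line and grey band mark the median (18) and the quartiles (7 to 27) of all tested genes with a window.

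Several genes of mast cells and basophils were lower in Tet2-/- cells, and most of the genes listed for these cells did not pass. In bulk samples fewer cells of a type and less RNA per cell cannot be told apart. Fcer1a, the IgE-binding subunit of the high-affinity IgE receptor, read 9.26, 10.75 and 10.84 in Tet2fl/fl cells and 8.37, 7.69 and 7.36 in Tet2-/- cells (-2.48 ± 0.44, adjusted p = 0.034). The groups were apart, with a small gap in pair 1. The other receptor subunits did not pass and differed by -0.04 (Ms4a2) and -0.09 (Fcer1g). Grap2, the adaptor also called Gads, was the other of the 17 measured IgE receptor and signalling genes to pass (-1.66 ± 0.31, adjusted p = 0.038), and the median of the list was -0.043.

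Of 13 measured granule protease genes, the tryptase gene Tpsab1 passed, which RefSeq annotates as a transcribed pseudogene in this build (GRCm38.p6). It read 7.83, 7.44 and 7.74 against 6.75, 5.63 and 5.47, with the highest Tet2-/- array in replicate 1 (-1.72 ± 0.23, adjusted p = 0.012). The chymase Mcpt4 read 10.01, 9.07 and 10.90 against 9.46, 5.64 and 6.27, so that the groups overlapped. It missed the threshold narrowly with the block (-2.87 ± 0.59, adjusted p = 0.0509) and by more without it (adjusted p = 0.239). The defining proteases Cpa3 (0.00) and Mcpt8 (0.05) did not pass. They read 13.33 to 13.42 and 13.04 to 13.12 on all 6 arrays, near the table's highest value of 13.6, where the array may not resolve a difference. Among the others, neither the chymase Cma1 (-0.91, adjusted p = 0.0915) nor the tryptase Tpsb2 (-0.44) passed. The list's median difference was -0.442, against -0.008 over all genes tested, with 9 of 13 below 0. By pair its median was -0.057, -0.523 and -0.94 for replicates 1, 2 and 3.

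Of 18 measured genes for amines and eicosanoids, Slc6a4 and the prostaglandin D synthase Hpgds passed. Hpgds read 8.68, 8.64 and 8.71 against 8.22, 7.68 and 7.28, all Tet2-/- arrays below the others (-0.95 ± 0.17, adjusted p = 0.0326). The enzymes that make serotonin and histamine differed by -0.63 (Tph1) and -0.28 (Hdc) without passing. Hdc read 13.02, 13.04 and 13.25 against 12.99, 12.58 and 12.89, without overlap (adjusted p = 0.265). Its Tet2fl/fl values lay near the table's highest value of 13.6, where the array may not resolve a difference. Of 14 surface and transcription factor genes of mast cells and basophils, Itga2 and Kit passed. Kit, the SCF receptor, read 11.14, 10.52 and 10.74 against 10.36, 10.04 and 9.56, without overlap (-0.82 ± 0.13, adjusted p = 0.0246). The lineage factors Gata2 (-0.16) and Mitf (-0.11) did not pass.

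Without the block, Fcer1a, Grap2, Tpsab1, Hpgds and Kit had adjusted p of 0.0753, 0.0556, 0.0588, 0.0773 and 0.161. All 5, and Itga2, missed the threshold without Tet2-/- replicate 2 or 3. Fcer1a, Grap2 and Hpgds also missed it without Tet2fl/fl replicate 2 or 3, and Kit without Tet2fl/fl replicate 1 or 3, with an adjusted p of up to 0.0909 for Kit and, the highest of these, 0.143 for Grap2. Calls also depended on passage 2 arrays, and Grap2 missed the threshold without any 1 of them. Fcer1a did so without passage 2 Tet2fl/fl replicate 2 or any Tet2-/- replicate. Hpgds did so without passage 2 Tet2fl/fl replicate 2 or Tet2-/- replicate 1 or 3. At passage 10 eosinophil genes followed the replicate number more than the genotype: their mean was 9.22, 7.22 and 8.64 in Tet2fl/fl and 8.72, 7.34 and 8.11 in Tet2-/- replicates 1, 2 and 3. None of the 8 measured passed (1 at an unadjusted p under 0.05, Epx, -1.49 ± 0.58, adjusted p = 0.267). The list's median difference was -0.387 at passage 10 and -1.083 at passage 2. Epx (-2.96, adjusted p = 0.0736) and Prg2 (-1.79, adjusted p = 0.2) were lower at passage 2 without overlap and did not pass. The summed linear signal of the eosinophil genes at passage 10 ran from 1848 to 8650 in Tet2fl/fl and from 2380 to 5562 in Tet2-/- cells. That of the granule proteases ran from 50923 to 56764 and from 43754 to 52583. In this linear sum Cpa3 and Mcpt8 (Tet2fl/fl means 13.37 and 13.07), near the table's highest value, outweigh Mcpt4 and Tpsab1 (9.99 and 7.67). The part of either list in the results was not tested.

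Of the markers of other blood and stromal cells, among them CD11b+ or Gr1+ cells that the sort was set to remove, 2 genes passed. No gene passed among 12 primary granule genes of neutrophil progenitors, 20 late granule genes, 17 monocyte and macrophage genes, 15 dendritic cell and MHC class II genes, 14 megakaryocyte genes or 8 stromal and endothelial genes. At an unadjusted p under 0.05, 16 of these 86 genes were higher (18.6%) and 6 lower (7.0%), against 6.21% and 8.29% of all genes tested, and each list's median lay between -0.008 and 0.096. Of 12 erythroid genes the membrane protein Rhag passed (1.02 ± 0.17, adjusted p = 0.0248), and its groups overlapped. Of 16 lymphoid and NK genes the inhibitory receptor Tigit passed (1.54 ± 0.28, adjusted p = 0.0372). Neither passed without the block (adjusted p = 0.265 and 0.26), or without Tet2fl/fl replicate 1 or 2 or Tet2-/- replicate 2 or 3, and Rhag not without Tet2fl/fl replicate 3. The summed linear signal of the late granule genes ran from 9088 to 16303 in Tet2fl/fl and from 12131 to 15853 in Tet2-/- cells.

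**Figure D3:**
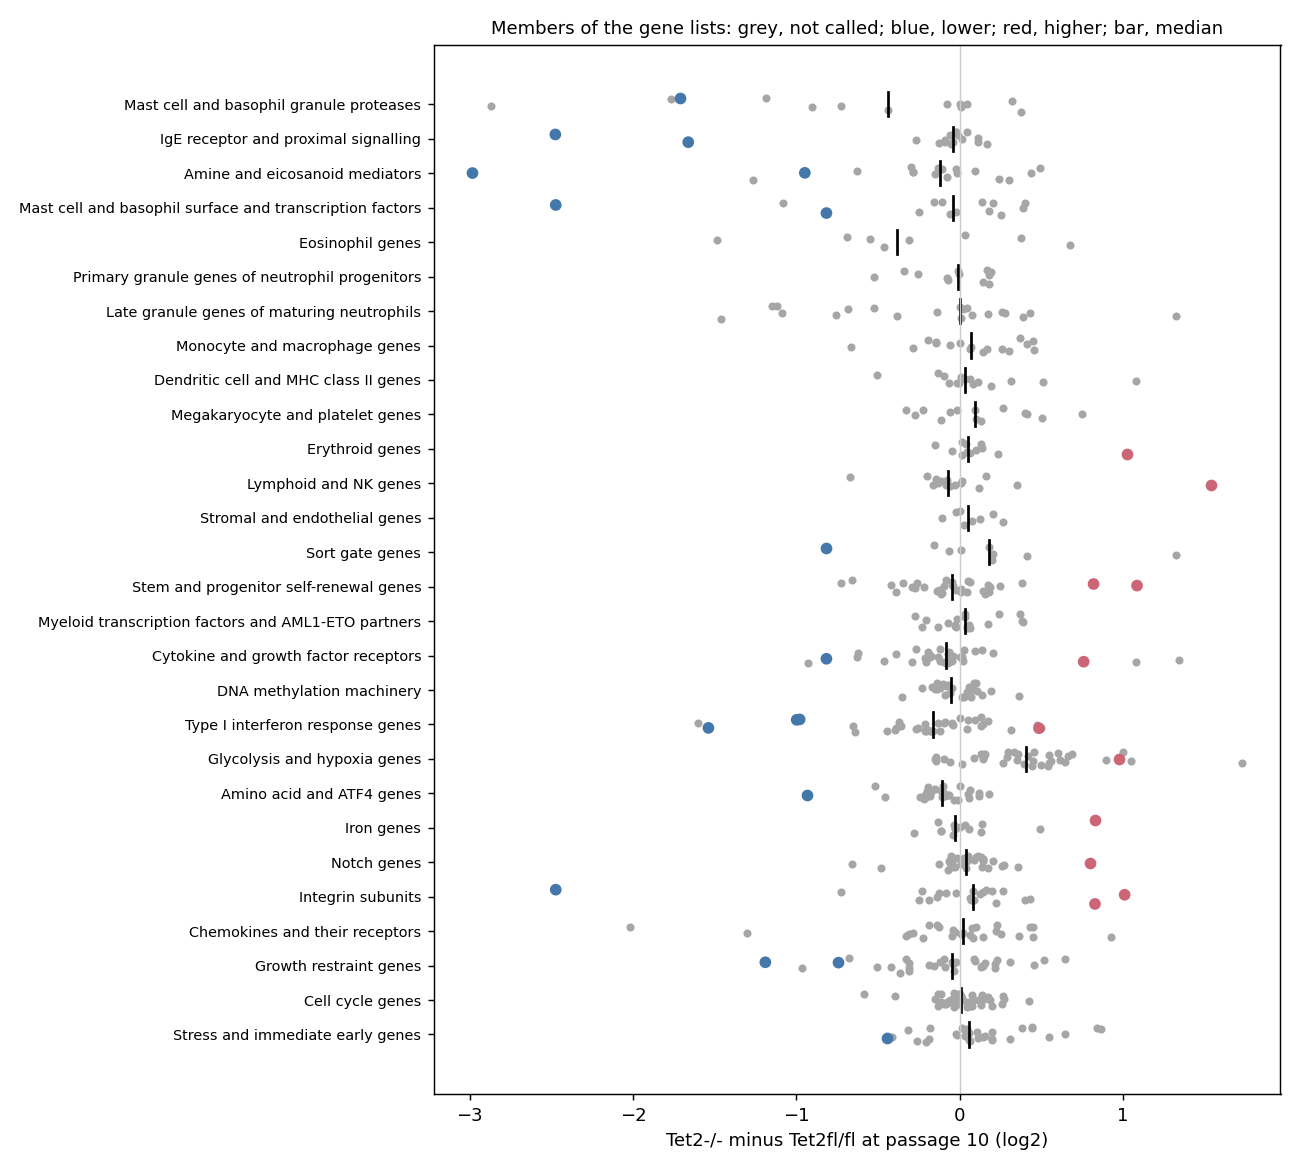
Differences between Tet2-/- and Tet2fl/fl cells at passage 10 (horizontal axis, log2) of the tested members of 28 gene lists. Grey points did not pass, blue and red points passed as lower and higher, and black bars are list medians, which stand at 0.405 for glycolysis and hypoxia genes and at -0.442 for granule proteases.

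Genes of glycolysis and the hypoxia response were higher as a list, with a single call. Of 38 measured, 33 were above 0 and 25 were higher at an unadjusted p under 0.05, against 1047 of the 16860 genes tested. The median was 0.405, against 0.207 for the same list at passage 2. This list, like the others, was drawn up with earlier results of these data known, so its counts are a description. Aldoc, an aldolase, read 9.84, 9.33 and 9.38 against 10.53, 10.74 and 10.20, without overlap, and passed (0.97 ± 0.17, adjusted p = 0.0326). It did not pass without the block (adjusted p = 0.117) or without any 1 passage 10 array other than Tet2fl/fl replicate 1 (adjusted p up to 0.136).

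The hypoxia targets Egln3 (1.73 ± 0.41), Bnip3 (1.05 ± 0.23), Ak4 (1.00 ± 0.26) and Pdk1 (0.90 ± 0.20) had adjusted p between 0.0561 and 0.101. Hif1a, the oxygen-regulated factor that drives such genes, differed by -0.15 (adjusted p = 0.486). Egln3 read 11.18, 8.66 and 9.53 in Tet2fl/fl and 11.61, 11.45 and 11.49 in Tet2-/- cells. Tet2fl/fl replicate 1 lay close to the Tet2-/- arrays and the other Tet2fl/fl arrays far below. The list mean showed the same order, at 10.13, 9.51 and 9.67 in Tet2fl/fl and 10.28, 10.16 and 10.12 in Tet2-/- cells. The median difference was 0.118 in pair 1, 0.619 in pair 2 and 0.428 in pair 3.

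**Figure D4:**
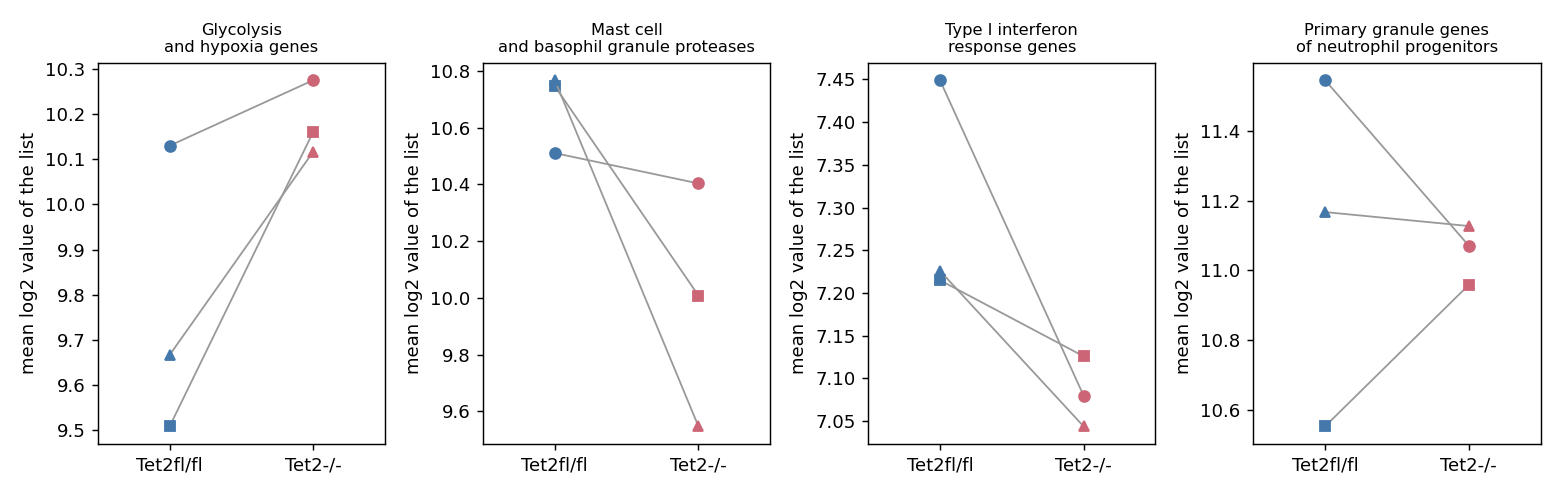
Mean log2 value of 4 gene lists (vertical axes, a scale of its own per list) in each array at passage 10, with lines joining arrays of the same replicate number (circle 1, square 2, triangle 3). The glycolysis and hypoxia mean is higher and the protease and interferon means are lower in Tet2-/- cells in all 3 pairs, and the pairs differ in direction for primary granule genes.

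Type I interferon response genes held the call with the lowest adjusted p. Ifitm3, a membrane protein that restricts virus entry, read 10.27, 9.72 and 10.31 in Tet2fl/fl cells and 8.68, 8.22 and 8.78 in Tet2-/- cells (-1.54 ± 0.10, adjusted p = 0.000514). All Tet2-/- arrays lay below all Tet2fl/fl arrays. Its relatives in the genome differed by -1.60 (Ifitm6, adjusted p = 0.0843), -0.16 (Ifitm1) and -0.12 (Ifitm2) without passing. Slfn4 (-1.0 ± 0.18, adjusted p = 0.0371) and Slfn5 (-0.98 ± 0.18, adjusted p = 0.035) of the Schlafen family passed as lower, with overlap between the groups for Slfn4. The exonuclease Isg20 passed as higher (0.48 ± 0.09, adjusted p = 0.0403). Other Schlafen genes differed by 0.31 (Slfn2, adjusted p = 0.265, without overlap), 0.17 (Slfn1), 0.04 (Slfn8) and -0.02 (Slfn3) without passing. Slfn4, Slfn5 and Isg20 did not pass without the block (adjusted p = 0.532, 0.253 and 0.248) or without Tet2-/- replicate 2 or 3. Isg20 also missed the threshold without any of the other passage 10 arrays, Slfn4 without Tet2fl/fl replicate 2 or 3, and Slfn5 without Tet2fl/fl replicate 1 or 3. Of the 39 measured genes 27 were below 0, with a median of -0.163 at passage 10 and 0.001 at passage 2.

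Among regulators of growth and self-renewal, few genes passed. Of 33 genes that restrain growth, Mtss1 and the phosphatase Ctdspl (-0.74 ± 0.14, adjusted p = 0.0409) passed as lower. Lxn, a carboxypeptidase inhibitor, read 10.99, 11.11 and 11.36 against 10.77, 9.87 and 9.94, without overlap. It narrowly missed the threshold (-0.96 ± 0.20, adjusted p = 0.0505, and 0.0753 without the block). Of 33 stem and progenitor genes Zbtb16 and Aff3 (1.08 ± 0.19, adjusted p = 0.0334), a nuclear protein of the AF4 family, passed as higher. No gene passed among 20 myeloid transcription factors and AML1-ETO partners, 28 genes of DNA methylation or 42 cell cycle genes (1, 0 and 4 higher and 1, 2 and 2 lower at an unadjusted p under 0.05). The nearest were Gfi1 (-0.27) and Cbfa2t3 (0.38), Mbd1 (-0.36) and Tet3 (-0.23), and the cyclins Ccnd2 (-0.40) and Ccnd1 (-0.59), with adjusted p from 0.0746 to 0.227.

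Of 23 integrin subunits, Itgae and Itgb7, which pair as the receptor for E-cadherin, rose while Itga2 fell. Itgb7 read 9.98, 10.02 and 9.88 against 10.63, 11.07 and 10.66, with all Tet2-/- arrays above the others (0.83 ± 0.11, adjusted p = 0.0111). Itgae differed by 1.01 ± 0.17 (adjusted p = 0.0246). Of 35 cytokine and growth factor receptors, the IL-10 receptor chain Il10ra passed as higher (0.76 ± 0.12, adjusted p = 0.021) and Kit as lower. No chemokine or chemokine receptor of 27 passed (6 were higher and 2 lower at an unadjusted p under 0.05). The monocyte attractants Ccl2 (-2.02 ± 0.45) and Ccl7 (-1.30 ± 0.31) had adjusted p of 0.0616 and 0.0746. Single calls came from amino acid metabolism (Got1, 1 of 29), iron genes (Tfr2, 1 of 15), Notch genes (Notch3, 1 of 32) and immediate early genes (the nuclear receptor Nr4a1, 1 of 32, -0.45 ± 0.08, adjusted p = 0.0394).

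Ctdspl, Aff3, Itgae, Itgb7, Il10ra and Nr4a1 did not pass without the block (adjusted p from 0.0608 to 0.232), nor without Tet2-/- replicate 2 or 3. All of these but Itgb7 missed the threshold without Tet2fl/fl replicate 2 as well. Ctdspl and Nr4a1 also did so without replicate 1 of either group, and Aff3 and Nr4a1 without Tet2fl/fl replicate 3. Over the 28 lists, 25 of the 575 members tested passed (4.35%), against 1.31% of all genes, and the other 196 called genes belonged to none. Leaving out 1 passage 2 array made 4 to 9 of the 25 miss the threshold (adjusted p up to 0.0714). The lists were drawn up with earlier results of these data known, so that this share is a description.

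Genes that passed only with the block numbered 183. Their arrays were apart in 152 (83.1%), against 16.3% of all genes tested, a share in large part given by calling them from the same arrays. Among the 15 largest falls were Adgrg7 (-2.30), an adhesion receptor, and Olfr907 (-1.84), an olfactory receptor. Brinp1 (-2.00), Car8 (-1.78), a relative of the carbonic anhydrases, and Bcar3 (-1.59), a signalling adaptor, fell as well. So did the neuron navigator Nav1 (-1.37), Pxdc1 (-1.34), Mab21l1 (-1.30), the ARF GTPase regulator Agap1 (-1.25) and Rhoj (-1.23). Tlr1, a receptor for bacterial lipoproteins (-1.21), and the carbonyl reductase Cbr1 (-1.15) complete this set with Fcer1a, Tpsab1 and Grap2. The groups overlapped for Adgrg7 and Mab21l1, and the Tet2-/- mean of Olfr907 (4.52) lay under the filter value of 4.70, where the size of a difference is uncertain.

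Rhoj shows how the block acts: it read 10.56, 10.85 and 11.30 against 9.23, 9.26 and 10.55. The Tet2-/- arrays all lay below, but within each group replicate 3 was the highest (-1.23 ± 0.15, adjusted p = 0.00929, and 0.264 without the block). Of these 15 genes, 12 missed the threshold without Tet2-/- replicate 2 and 10 without replicate 3. Without Tet2fl/fl replicate 2, 3 or 1 it was 8, 7 and 2, without Tet2-/- replicate 1 it was 1, and the highest adjusted p was 0.218. Leaving out 1 passage 2 array made 3 to 6 of them miss it. Nav1, Rhoj and Cbr1 passed without any 1 array, but not in the fit to the passage 10 arrays alone.

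The 15 largest rises of this kind were led by Cdh17, a cadherin, which read 7.14, 6.43 and 6.16 against 8.39, 9.37 and 8.27, without overlap (2.10 ± 0.35, adjusted p = 0.0278). The ion transport regulator Fxyd4 (1.54), Nxpe4 (1.41), the T cell receptor segment Trbv13-2 (1.28) and Scel (1.11) were higher too. So were the growth factor Fgf3 (1.11), the ubiquitin ligase Trim58 (1.01), the water channel Aqp8 (1.01), the Ras activator Rasgrp3 (0.98) and the mitochondrial lyase Clybl (0.96). Tigit, Aff3, Rhag, Itgae and Aldoc complete the set, and the groups overlapped for Scel, Fgf3, Rhag, Rasgrp3 and Clybl. The Tet2fl/fl mean of Scel (4.36) lay under the filter value, so the size of its difference is uncertain. Without Tet2-/- replicate 2 all 15 missed the threshold, and 14 did without replicate 3. Without Tet2fl/fl replicate 2 or 3 it was 12 and 10, and without replicate 1 of either group 4 (Tet2fl/fl) and 3 (Tet2-/-). Leaving out 1 passage 2 array did so for 1 to 5 of them, and the highest adjusted p was 0.175.

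Large differences also came from a group of predicted genes on chromosome 12 that resemble the translation initiation factor Eif1a. They lie outside the rule for naming genes and were chosen after their values were seen. Gm5662 read 4.00, 3.87 and 5.82 in Tet2fl/fl and 8.70, 8.59 and 9.18 in Tet2-/- cells, without overlap (4.26 ± 0.41, adjusted p = 0.0028). Its Tet2fl/fl mean of 4.565 lay under the filter value of 4.70, so the size of the difference is uncertain and no fold is given. Gm2022 (3.17 ± 0.35), Gm2046 (2.96 ± 0.27), Gm2016 (1.79 ± 0.26) and Gm2035 (1.55 ± 0.22) also passed with and without the block. Gm2016 missed the threshold without Tet2fl/fl replicate 3 or Tet2-/- replicate 2 or 3 (adjusted p up to 0.078), and Gm2035 without Tet2fl/fl replicate 2 or Tet2-/- replicate 2 or 3 (up to 0.0771). These genes are near-identical copies, so how the array splits signal among them is uncertain. Eif1a and Eif1ax differed by -0.12 and -0.08 without passing.

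At passage 2 the differences of the called genes mostly ran in the same direction and were smaller. Their sign was shared in 210 of 221, against 62.7% of all genes tested, and 209 of the 221 were larger at passage 10. The median of the higher genes was 0.709 at passage 10 and 0.302 at passage 2, and that of the lower genes -0.722 and -0.47. Since the genes were called at passage 10, a smaller value at passage 2 is partly given by the choice. At passage 2 itself 69 genes passed (0.409%), and 38 of the 221 were among those that passed in the same direction. Without the block 1 gene passed there (1677 at an unadjusted p under 0.05), and with a random block 7. Without 1 passage 2 array the count was 0 (Tet2-/- replicate 1 or 3), 1 (Tet2fl/fl replicate 2 or 3), 3 (Tet2-/- replicate 2) or 13 (Tet2fl/fl replicate 1). Without Tet2-/- passage 10 replicate 2 or 3 it was 31 or 20. Slc6a4 (-2.48), Itga2 (-2.00), Lhfp (-1.92), Kit (-0.83) and Notch3 (0.55) passed at passage 2 as well with the block, and none of these 5 without it (adjusted p from 0.0555 to 0.201). Nepn (1.04), Tfr2 (0.18), Fcer1a (-0.69) and Cdh17 (0.64) did not.

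A test of the change of the genotype difference between passages found 1 gene (0.00593%), Ifitm3; 838 had an unadjusted p under 0.05. Ifitm3 at passage 2 read 9.65, 9.51 and 9.61 in Tet2fl/fl and 9.48, 9.12 and 9.62 in Tet2-/- cells, and the groups overlapped (-0.19 ± 0.10, adjusted p = 0.468). The change from passage 2 to passage 10 was -1.35 ± 0.14 (adjusted p = 0.0432). Without the block no gene passed this test (543 at an unadjusted p under 0.05), with an adjusted p of 0.999 for Ifitm3. Leaving out any 1 of the 12 arrays gave 0 genes, apart from Tet2fl/fl passage 2 replicate 2, which gave 1. For Fcer1a, Nepn and Cdh17 the changes of -1.79 ± 0.62, 1.54 ± 0.49 and 1.46 ± 0.50 did not pass (adjusted p from 0.942 to 0.946).

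**Figure D5:**
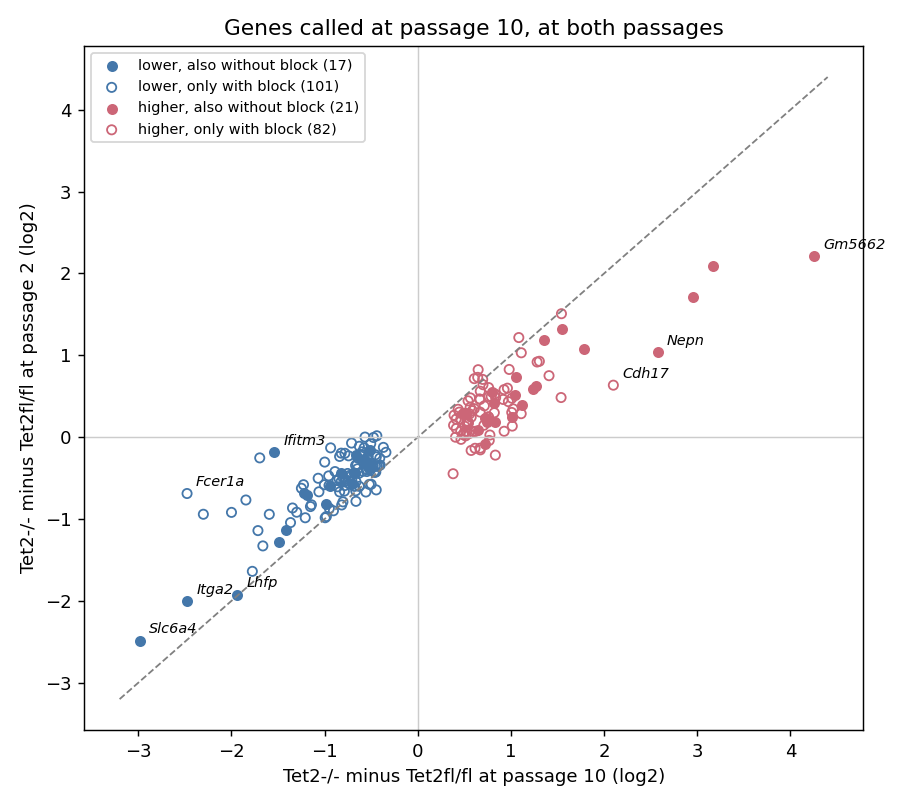
Differences between Tet2-/- and Tet2fl/fl cells at passage 10 (horizontal axis, log2) and passage 2 (vertical axis, log2) for the 221 genes called at passage 10. Filled points passed also without the replicate block and open points only with it, the dashed line marks equal differences, and most points lie nearer to 0 at passage 2, Ifitm3 among them.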

How the data were processed

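RNA from sorted cells was measured on 12 Affymetrix GeneChip Mouse Gene ST 2.0 arrays. The deposited log2 values were made by the authors with RMA in Affymetrix Power Tools, per the submitters' processing notes, and were used as deposited. Their versions are not stated in any source used here. Symbols came from the platform's probe annotation, with 23328 of 23521 rows updated by gene ID through a GRCm38.p6 gene table. Rows with a mean at or above the 30th percentile (log2 4.70) were kept, and for each gene the row with the highest mean.

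With limma 3.58.1 in R 4.3.3 a mean per group and the replicate number as a block were fitted to all 12 arrays (6 residual and 3.93 prior degrees of freedom), with two-sided moderated tests. The block was used because the comparison was set to take arrays with the same replicate number as pairs, and the labels do not state a pairing. Deviations from group means correlated at 0.201 to 0.517 for 18 same-numbered pairs of arrays and at -0.369 to 0.0532 for 36 others. Over all rows of the table the ranges were -0.0659 to 0.352 and -0.284 to 0.185, and they overlapped. Deviations within a group sum to 0, so a positive correlation of same-numbered arrays tends to lower that of the others. These values do not settle the pairing. Separate cultures are not named in the labels, and the p-values then reflect only how these arrays spread, which may be technical. The steps were run on simulated data with a replicate effect shared by all groups. Such data cannot show whether the block suits these arrays.

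The comparison, lists and naming rule were chosen with earlier results of these data known. The rule named Tet2 and, leaving out predicted genes, the 15 largest differences in each direction among genes passing with and without the block without overlap, and the 15 among those passing only with it. It added every list member that passed (or the 2 nearest) and the 5 smallest p in each direction for the change between passages. Lists held 674 genes, of which 575 were tested, 39 lay below the filter and 60 had no row. Alternatives covered the block, scaling, filter, variance model, row choice and each array left out. The number of arrays limits the precision.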

Additional observations from a re-analysis of the deposited data

Results flagged for a closer look

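The genotype difference of Ifitm3 changed by -1.354 from passage 2 to passage 10 (adjusted p = 0.0432 in limma's fit with the block). For 10 other named genes all 3 pairs ran one way at passage 10 and the opposite way at passage 2, and the test of the change between passages did not pass for any of them. The naming rule took in the 5 smallest p in each direction for this change, so opposite signs among named genes are partly given by the choice. All 3 pairs ran in 1 direction at passage 10 in 37.5% of all genes tested. No share of all genes with opposite directions at the passages is given here. Passing at passage 10 and higher in Tet2-/- cells were Olfr446 (0.379, adjusted p of the change 0.178) and the hyaluronidase Hyal3 (0.573). Neither passed at passage 10 without the block (adjusted p = 0.189 and 0.056). Olfr446 missed the threshold without any 1 passage 10 array (adjusted p up to 0.193), after equal medians (0.0735) and after quantile normalization (0.066), and its Tet2fl/fl mean of 4.54 lay under the filter value of 4.70. Hyal3 missed it without Tet2fl/fl replicate 2 or Tet2-/- replicate 2 or 3 (up to 0.14). Olfr446 had passed as lower at passage 2 (-0.45). The differences of Niban1 (0.327), Prrt1 (0.178) and the endothelial cadherin Cdh5 (0.264) at passage 10 were above 0 without passing. Those of the MHC class II chaperone H2-DMa (-0.507), the cytokine receptor Flt3 (-0.096), the neurokinin receptor Tacr1 (-0.075), 8430426J06Rik (-0.256) and E130311K13Rik (-0.27) were below 0 without passing. Tacr1 and Flt3 had passed as higher at passage 2 (1.01 and 0.63). The passage 10 pairs of Flt3 were -0.007, -0.244 and -0.036, so genes with values near 0 are among those flagged. None of the 3 passage 2 calls named here was made without the block (adjusted p from 0.135 to 0.167). The adjusted p of the change lay between 0.841 and 0.946 for all of these but Olfr446.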

How the results depend on the processing

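The replicate block set the count of calls: 221 genes (103 higher, 118 lower) with it, 38 (21, 17) without, 124 (63, 61) with a random block and 308 (135, 173) with a block within each passage, which was chosen after seeing the data. Passage 10 arrays alone gave 15 (8, 7) with the block and 3 (1, 2) without. The count was 116 (52, 64) without a filter, 380 (183, 197) with a variance trend and 420 (199, 221) with array weights. It stayed within 1.5 times of 221 for equal medians (239), quantile normalization (256), the 50th percentile filter (295), robust variance (233), the mean of a gene's rows (230) and all rows (201). Leaving out 1 array gave 31 to 253 calls (15 to 144 higher, 16 to 151 lower), and leaving out replicate 1, 2 or 3 in all groups 163, 2 or 33 (73, 1 or 13 higher and 90, 1 or 20 lower). The count for a change between passages was 0 or 1 in every fit, and 0 without the block, with a random block, after equal medians, without a filter, with array weights, over all rows and with a block within each passage. Without 1 array the Tet2 difference ran from -0.0889 to 0.0088 and that of Tacr1 from -0.181 to 0.0139; Tet2 turned positive without Tet2-/- passage 10 replicate 2 and without replicate 2 in all groups (0.0058), Tacr1 without Tet2-/- passage 10 replicate 3, and none passed. None of the 221 genes was called under all 28 settings. The causes were not tested.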
